A study of Homo sapiens with 6 samples.

Results

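A set of 40 DNA repair genes was followed through RNA-seq of gemcitabine-resistant PANC-1 cells. PANC-1 is an established line from a human pancreatic ductal carcinoma, and gemcitabine is a nucleoside drug that is built into DNA. The genes were chosen by symbol from the 19912 rows of the deposited mRNA table: 6 of mismatch repair, 12 of nucleotide excision repair, 16 of base excision repair and 6 of end joining. All 40 symbols had 1 row each. The samples were 3 libraries labelled ctrl and 3 labelled shSRSF3, a short hairpin label against the splicing factor SRSF3, all from the resistant Panc-1 line. The labels give no age of culture, clone, selection dose or batch, and do not say whether replicates came from separate cultures, so p-values measure the spread between these libraries, which may be technical.

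Mismatch repair removes bases that the replicating polymerase paired wrongly. Nucleotide excision repair cuts out a stretch of strand around a bulky lesion, such as a UV photoproduct or a platinum adduct. Base excision repair removes single damaged or misplaced bases, beginning with a glycosylase that recognises the base, and end joining ligates broken DNA ends without a template. Uracil, alkylated bases and oxidised bases each have their own glycosylases, and the gap is then filled and sealed by shared enzymes.

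Levels are deposited FPKM, fragments divided by gene length and by the size of the library. Library totals recovered from the steps of the values ran from 24558238 to 27351642 fragments. The changes are differences of log2(FPKM + 1), knockdown label minus control, from limma fitted over the 10823 genes whose mean reached 0.5 FPKM, and a gene is said to rise or fall where its Benjamini-Hochberg adjusted p was below 0.05. Of these genes 1819 passed (16.8%), 1179 higher (10.9%) and 640 lower (5.91%). SRSF3 itself had 37.0, 39.6 and 39.2 FPKM in controls, and 36.9, 37.1 and 38.6 FPKM under the knockdown label. The groups overlapped and no fall was detected (log2 -0.04, 95% interval -0.15 to 0.07, limma adjusted p = 0.612), so each direction given here is that of the label. The summed FPKM of all mRNA rows was 275359 to 285701 in controls and 336887, 308101 and 287148 in knockdown libraries 1 to 3. The summed FPKM of 13 mitochondrial mRNAs was 70369 to 74760 in controls and 108068, 84716 and 73651 in knockdown libraries 1 to 3, and its part in the results was not tested. Of 19 proliferation markers, 5 fell (MKI67, TOP2A, CDK1, CCNA2 and BUB1) and CCNE1 rose. The epithelial markers KRT8, KRT18, KRT19, EPCAM and CDH1 summed to between 3569 and 4690 FPKM per library, while 3 leukocyte markers summed to at most 0.0554 FPKM, with PTPRC listed at 0 in all 6.

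Of the 40 members, 38 passed the filter and 8 were called, 6 higher and 2 lower (21.1% called, beside 16.8% of all tested genes). The share is near that of the table, so the 40 genes as a group did not stand out by the number called. ERCC2 and DDB1 of nucleotide excision, NTHL1, UNG and MPG of base excision and XRCC6 of end joining rose. NEIL1 and NEIL3, also of base excision, fell, and of the 6 mismatch repair genes 0 were called. The count of members changed when 1 library was left out, as did the share of all tested genes called, given in brackets. It was 2 without control library 1 (9.98% of all tested genes called), 2 without control library 2 (5.95%), 2 without control library 3 (5.98%), 4 without knockdown library 1 (15.2%), 2 without knockdown library 2 (7.78%) and 11 without knockdown library 3 (25.3%). With other settings it was 2 with no filter (5.88%), 7 among genes averaging 5 FPKM or more (26.4%), 8 with robust empirical Bayes (17.7%), 5 with quantile normalization (15.0%) and 9 with the replicate number as a block (21.5%).

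**Figure D1:**
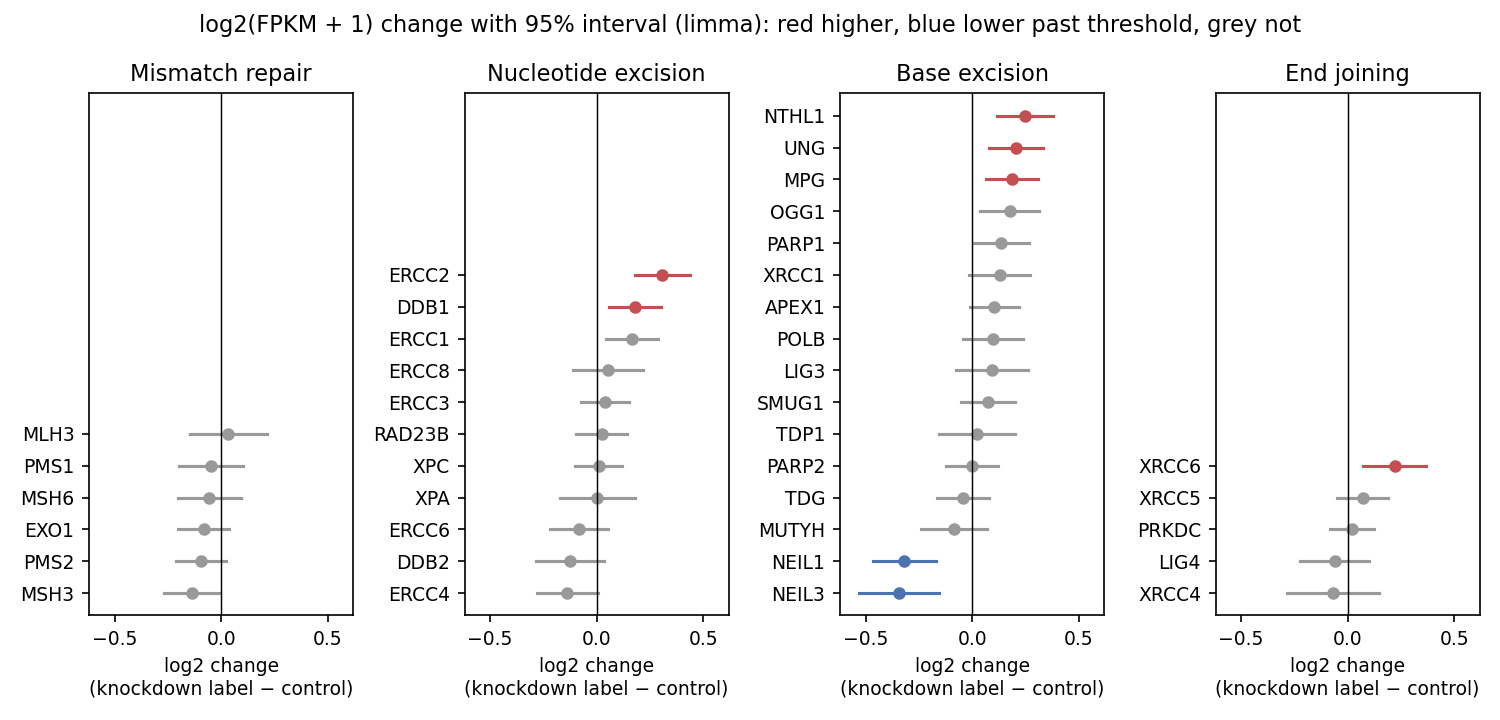
Change of each tested member in log2(FPKM + 1), knockdown label minus control (horizontal axis), by repair class; points are limma estimates and lines their 95% intervals, with red and blue for genes past the adjusted p threshold. The called genes run from -0.34 for NEIL3 to 0.31 for ERCC2, and all 6 mismatch repair genes are grey.

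The DNA just upstream of the start is shown for 4 of the called genes, chosen as the one that rose most (ERCC2), glycosylase genes that rose (UNG and NTHL1) and the glycosylase gene with the largest fall on the log2(FPKM + 1) scale (NEIL3). Each stretch is the 180 bases before the most upstream RefSeq start in GRCh38.p14, 5′ to 3′ on the strand of the gene. Capitals mark matches, on either strand, to the letters GGGCGG of a GC box, to CCAAT, to the ETS-type letters CCGGAAG, to the E2F-type letters TTCCCGC and, in their other searched form, TTGGCGC, and to the cell cycle homology region (CHR), searched as TTTGAA and in its other form as TTTAAA. ERCC2 is at chr19:45370574-45370753 on the minus strand, UNG at chr12:109097417-109097596 on the plus strand, NTHL1 at chr16:2047835-2048014 on the minus strand and NEIL3 at chr4:177309694-177309873 on the plus strand.
ERCC2: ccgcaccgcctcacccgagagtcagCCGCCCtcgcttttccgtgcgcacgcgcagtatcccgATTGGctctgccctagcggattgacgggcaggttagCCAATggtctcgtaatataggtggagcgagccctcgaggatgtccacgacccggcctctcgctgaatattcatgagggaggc
UNG: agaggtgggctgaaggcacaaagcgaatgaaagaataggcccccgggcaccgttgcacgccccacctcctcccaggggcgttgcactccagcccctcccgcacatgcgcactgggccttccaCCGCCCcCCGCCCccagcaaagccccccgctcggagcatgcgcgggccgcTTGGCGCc
NTHL1: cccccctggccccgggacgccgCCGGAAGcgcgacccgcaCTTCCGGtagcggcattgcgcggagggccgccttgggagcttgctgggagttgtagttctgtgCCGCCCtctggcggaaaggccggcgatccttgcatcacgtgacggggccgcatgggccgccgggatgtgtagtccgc
NEIL3: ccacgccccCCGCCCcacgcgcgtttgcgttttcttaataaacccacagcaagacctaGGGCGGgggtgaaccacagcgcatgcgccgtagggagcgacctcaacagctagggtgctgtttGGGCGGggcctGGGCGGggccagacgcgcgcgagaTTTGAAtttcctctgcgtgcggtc
The 4 stretches share a GC box and otherwise hold different letters: CCAAT in ERCC2, an E2F-type site in UNG, paired ETS-type sites in NTHL1 and a CHR in NEIL3. This contrast holds for these stretches only. Within 250 bases of its start NEIL3 also had CCAAT, at -223, and the window of another UNG start held both CCAAT and a CHR. RefSeq windows were matched for 36 of the 40 members. In the 250 bases before the start, 29 of these 36 held a GC box in at least 1 window, as did 42.6% of all 35116 windows. An E2F-type site was in 12 of the 36 and in 7.81% of all windows, a CHR in 11 and 21.9%, CCAAT in 19 and 32.0%, an ETS-type site in 5 and 8.52%, and TATAAA in 0 and 10.7%. Members with several starts had several windows, so these counts are not on the same footing as the shares, and a match of letters is a description, not a bound site. Counted by window, as the shares are, a GC box was in 38 of 57 member windows and an E2F-type site in 15. A CHR was in 11 of the 57, CCAAT in 22, an ETS-type site in 7 and TATAAA in 0.

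Base excision repair held 5 of the 8 calls, all of them glycosylase genes. Of its 16 members 3 rose and 2 fell (31.3% called, beside 16.8% of all tested genes, with 10.9% higher and 5.91% lower), and the median change was 0.10 (log2), against 0.02 over all tested genes. NTHL1 encodes a glycosylase for oxidised pyrimidines. Its values were 8.68, 8.57 and 8.74 FPKM in controls, then 9.62, 10.9 and 11.0 FPKM under the knockdown label. The groups did not overlap, and the rise was 0.25 (log2, SE 0.06, limma adjusted p = 0.0191). UNG, the main uracil glycosylase, stood at 24.3, 24.2 and 22.1 FPKM in controls and at 27.9, 28.3 and 25.8 FPKM under the knockdown label. Every knockdown value was above every control value, and UNG rose by 0.21 (log2, SE 0.06, limma adjusted p = 0.0326); RefSeq names 3 pseudogenes after it. MPG, the glycosylase for alkylated purines, went from 38.4, 36.7 and 35.2 FPKM to 41.6, 44.4 and 40.1 FPKM. Its groups did not overlap, and it rose by 0.19 (log2, SE 0.06, limma adjusted p = 0.0409). In RefSeq the MPG gene overlaps NPRL3, which also rose, by 0.21 (log2, adjusted p = 0.0439), and the sources used here do not say whether counting used strand, so reads of overlapping genes cannot be told apart.

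The 2 glycosylases that fell belong to a family related to the bacterial Nei enzymes, whose other gene, NEIL2, was not called. NEIL2, from the list of other pathway genes, had 1.61, 0.930 and 1.09 FPKM in controls and 2.56, 1.68 and 1.43 FPKM under the knockdown label, with overlap (log2 0.38, SE 0.14, limma adjusted p = 0.0919). NEIL1, which acts on oxidised bases, stood at 1.16, 1.33 and 1.22 FPKM in controls and at 0.878, 0.741 and 0.760 FPKM under the knockdown label. All 3 knockdown values lay below the controls, with 128 to 236 fragments behind each value. The mean fell by 35.9%, and by 0.32 on the log2(FPKM + 1) scale (SE 0.07, limma adjusted p = 0.0114), which understates a change at this level; with a pseudocount of 0.1 the value was -0.58, and it was -0.64 with voom on recovered fragments. MAN2C1, which overlaps NEIL1 in RefSeq, had a log2 value of 0.01 (adjusted p = 0.940). NEIL3, a glycosylase of proliferating cells that also acts at DNA crosslinks, stood at 4.83, 4.51 and 5.10 FPKM in controls and at 3.35, 3.22 and 4.25 FPKM under the knockdown label. Knockdown library 3 was close to the lowest control without reaching it, and NEIL3 fell by 0.34 (log2, SE 0.08, limma adjusted p = 0.0228). Of the 19 proliferation markers, 5 fell, 1 rose and 7 had positive values in the same fit, with a median of -0.04 (log2). MKI67 and TOP2A, among those that fell, had log2 values of -0.36 and -0.57, while CCNE1 rose by 0.38. The part of these markers in the NEIL3 value was not tested.

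NTHL1 and NEIL1 both remove oxidised pyrimidines, and their values moved apart. The ratio of NTHL1 to NEIL1 FPKM was 7.51, 6.44 and 7.15 in controls and 11.0, 14.7 and 14.5 in the libraries labelled knockdown. This pair was chosen after the values were seen, so no test is given.

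The calls of base excision genes differed in how often they were kept when 1 library was left out or a setting changed. NEIL1 lost its call without control library 2 (adjusted p = 0.0583) and under no other setting tried in which it was tested. NTHL1 lost it without control libraries 1, 2 and 3 (0.0572, 0.0798 and 0.0656), without knockdown library 2 (0.0727) and with no filter (0.0524). NEIL3 lost it without control libraries 1 and 3 (0.0649 and 0.0932), without knockdown libraries 1 and 2 (0.0506 and 0.0866) and with no filter (0.0863). UNG lost it without control libraries 1, 2 and 3 (0.0601, 0.0857 and 0.143), without knockdown libraries 1 and 2 (0.0587 and 0.111), with quantile normalization (0.0825) and with no filter (0.0725). MPG lost it without control libraries 1, 2 and 3 (0.0601, 0.140 and 0.168), without knockdown library 2 (0.140), with quantile normalization (0.149) and with no filter (0.0804). All 5 kept their direction in every alternative that tested them. For NTHL1 the log2 value was 0.25, 0.24 and 0.25 without control libraries 1, 2 and 3, against 0.25 with all libraries.

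**Figure D2:**
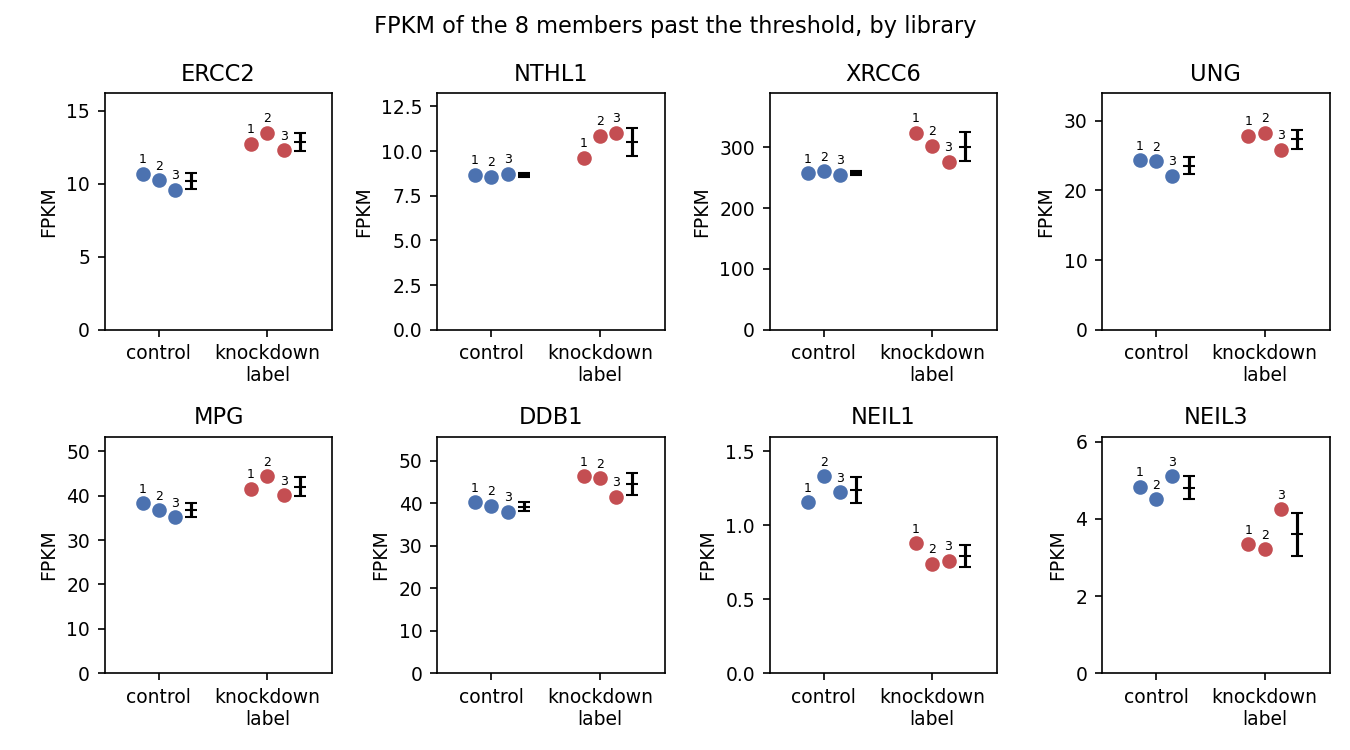
FPKM (vertical axes, from 0) of the 8 called members in each library, numbered by replicate, control in blue and knockdown label in red; black bars are the mean ± SD of 3 libraries. In each panel the groups do not overlap, from NEIL1 at 0.741 to 1.33 FPKM up to XRCC6 at 255 to 324 FPKM.

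The other glycosylases did not pass. OGG1, which removes 8-oxoguanine, stood at 2.99, 2.92 and 2.73 FPKM in controls and at 3.62, 3.28 and 3.26 FPKM under the knockdown label. Its groups did not overlap (log2 0.18, 95% interval 0.04 to 0.31, limma adjusted p = 0.0768), and with voom on recovered fragments it was called (adjusted p = 0.0461). OGG1 overlaps TADA3 in RefSeq, a transcription coactivator gene at 30.2 ± 1.70 FPKM in controls, which rose by 0.25 (log2, adjusted p = 0.0224). MUTYH, which removes adenine opposite 8-oxoguanine, was at 6.42 ± 0.335 and 6.01 ± 0.577 FPKM (SD, n = 3; log2 -0.08, limma adjusted p = 0.429). SMUG1, a second uracil glycosylase, was at 6.04 ± 0.199 and 6.42 ± 0.306 FPKM, and TDG, which acts on thymine and uracil opposite guanine, at 8.41 ± 0.278 and 8.15 ± 0.398 FPKM. UNG was thus the most abundant of the 3 uracil glycosylases per length, with no overlap of its values with those of SMUG1 or TDG in any library.

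Downstream of the glycosylases, the abundant members APEX1 and PARP1 had small positive values that were not called. From the list of other pathway genes, FEN1 had a log2 value of -0.0024, HMGB1 fell by 0.30 and APEX2 rose by 0.32. APEX1, the endonuclease that cuts at the abasic site, had the highest level of the base excision members. It stood at 98.8, 98.5 and 96.0 FPKM in controls and at 109, 106 and 99.7 FPKM under the knockdown label (log2 0.10, 95% interval -0.01 to 0.22, limma adjusted p = 0.193), and its value turned to -0.03 with quantile normalization. PARP1, the break sensor that makes poly(ADP-ribose), went from 58.8, 57.7 and 56.6 FPKM to 67.6, 64.9 and 58.5 FPKM, where knockdown library 3 lay within the controls (log2 0.14, limma adjusted p = 0.136). It was called without that library (0.20, adjusted p = 0.0164), while its value was 0.03 with quantile normalization (adjusted p = 0.639) and 0.09 without knockdown library 1 (adjusted p = 0.275). Its relative PARP2 was at 9.05 ± 0.360 and 9.03 ± 0.375 FPKM (SD, n = 3; 95% interval of the log2 change -0.12 to 0.12). The scaffold gene XRCC1 had a log2 value of 0.13 (adjusted p = 0.193; 0.0311 without knockdown library 3 and 0.491 without knockdown library 2) and its partner ligase gene LIG3 one of 0.09 (adjusted p = 0.416). POLB, the gap-filling polymerase, was at 8.48 ± 0.358 and 9.15 ± 0.677 FPKM, and TDP1, which clears topoisomerase from DNA ends, at 4.89 ± 0.219 and 5.01 ± 0.692 FPKM. The XRCC1 to LIG3 ratio within a library was 2.95 ± 0.102 and 3.01 ± 0.243, with overlapping groups.

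In nucleotide excision repair, 2 of 11 tested members rose and 0 fell, with a median change of 0.02 (log2). The share called, 18.2%, was near the 16.8% of all tested genes. ERCC2 encodes XPD, the helicase of TFIIH that opens DNA around a lesion. It stood at 10.7, 10.3 and 9.58 FPKM in controls and at 12.7, 13.5 and 12.3 FPKM under the knockdown label, with 1690 to 2164 fragments per library. The groups did not overlap, the mean was 26.1% higher, and the log2 rise of 0.31 (SE 0.06, limma adjusted p = 0.00741) was the only member call kept under all 15 alternatives, over a range of 0.27 to 0.34. KLC3, which overlaps ERCC2 in RefSeq, was at 1.38, 1.21 and 1.34 FPKM in controls and at 1.62, 1.85 and 1.40 FPKM under the label, without overlap but not past the threshold (log2 0.18, limma adjusted p = 0.125). ERCC3, the other TFIIH helicase (XPB), was at 11.4 ± 0.484 and 11.7 ± 0.058 FPKM (SD, n = 3; log2 0.04, limma adjusted p = 0.607). The ratio of ERCC2 to ERCC3 was 0.986, 0.889 and 0.814 in controls and 1.08, 1.15 and 1.05 in the libraries labelled knockdown. Per length, ERCC2 thus went from the lower to the higher level of the pair. Recovered lengths were 6450 bases for ERCC2 and 8422 for ERCC3, so this order rests on the gene models the authors used. In recovered fragments ERCC2 stayed lower, at 1690 to 2164 against 2241 to 2711 for ERCC3 over the 6 libraries. An exact two-sided permutation test on the log2 ratio gave p = 0.1, the smallest that 3 against 3 allows, and an adjusted p = 0.35 over 14 pairs.

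DDB1, of the ubiquitin ligase that finds UV damage in chromatin, stood at 40.2, 39.4 and 38.0 FPKM in controls and at 46.4, 45.9 and 41.5 FPKM under the knockdown label. The groups did not overlap, and it rose by 0.18 (log2, SE 0.06), with a limma adjusted p = 0.0496 just inside the threshold. The call was lost with a pseudocount of 0.1 (0.05005), no filter (0.0899), median scaling (0.0606), quantile normalization (0.161) and without any 1 library other than knockdown library 3 (0.0902, 0.1499 and 0.183 for controls 1 to 3, and 0.0944 and 0.149 for knockdown libraries 1 and 2). It was also lost without the rows off the step grid (0.0503). DDB2, the damage-binding partner, was at 8.17, 7.37 and 7.60 FPKM in controls and at 7.81, 6.83 and 6.36 FPKM under the label (log2 -0.13, limma adjusted p = 0.248). Their ratio was 5.09 ± 0.222 in controls and 6.39 ± 0.409 under the label (SD, n = 3), with no overlap (exact permutation p = 0.1, adjusted p = 0.35).

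The genes of the incision nuclease ERCC1-XPF also had log2 values of opposite sign. ERCC1 stood at 11.8, 11.1 and 10.8 FPKM in controls and at 13.0, 13.1 and 12.1 FPKM under the knockdown label (log2 0.17, limma adjusted p = 0.0668; 0.0490 among genes of at least 5 FPKM and 0.0261 without knockdown library 3, but 0.119 with quantile normalization and 0.225 without control library 3). POLR1G, which overlaps ERCC1 in RefSeq and is listed as CD3EAP, rose by 0.26 (log2, limma adjusted p = 0.0293). ERCC4, which encodes XPF, stood at 2.69, 2.80 and 2.98 FPKM and at 2.41, 2.35 and 2.67 FPKM (log2 -0.14, adjusted p = 0.162). Neither gene passed, and in neither did the groups overlap. The ERCC1 to ERCC4 ratio was 4.40, 3.95 and 3.64 in controls and 5.41, 5.57 and 4.52 under the label, a log2 difference of 0.37 with no overlap (exact permutation p = 0.1, adjusted p = 0.35).

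Of the recognition genes beside DDB1, 0 passed. XPC, the first sensor of the global branch, was at 10.7 ± 0.326 and 10.8 ± 0.268 FPKM (SD, n = 3; 95% interval of the log2 change -0.10 to 0.12), and its stabilising partner RAD23B at 54.1 ± 1.10 and 55.1 ± 3.21 FPKM. XPA, which verifies the damage, was at 5.10 ± 0.318 and 5.13 ± 0.628 FPKM. ERCC6 (CSB) and ERCC8 (CSA) act in the branch that starts from a stalled RNA polymerase. ERCC6 was at 1.31, 1.25 and 1.36 FPKM in controls and at 1.11, 1.21 and 1.21 FPKM under the label. Its log2(FPKM + 1) value was -0.08 (limma adjusted p = 0.366), and its log2 value was -0.15 with voom on recovered fragments (adjusted p = 0.187). ERCC8 was at 0.710 ± 0.122 and 0.773 ± 0.084 FPKM. ERCC5, the XPG nuclease on the other side of the lesion, had a mean of 0.484 FPKM, under the filter, from 62 to 123 fragments per library, and was not tested. In RefSeq it overlaps the read-through gene BIVM-ERCC5, which is listed at 0 in all libraries, and how shared reads were assigned is not stated.

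Mismatch repair had 0 of 6 members called by limma, beside 16.8% of all tested genes. With 6 genes, a count of 0 does not set the class apart from that share. In the limma fit 1 member (MSH3) had an unadjusted p under 0.05, and 0 were called with voom. Of the 6, 5 had values below 0 and the median change was -0.07 (log2), against 0.02 over all tested genes. MSH3, which pairs up to recognise larger loops, stood at 3.05, 3.07 and 2.93 FPKM in controls and at 2.65, 2.55 and 2.75 FPKM under the knockdown label. Its groups did not overlap, and the mean was 12.1% lower by value (log2 change -0.14, 95% interval -0.27 to -0.01, limma adjusted p = 0.127). MSH6, which recognises base mismatches, stood at 1.16, 1.06 and 1.25 FPKM and at 1.13, 1.12 and 0.976 FPKM (log2 -0.06, adjusted p = 0.598). The recovered length of MSH6 was 10993 bases against 4709 for MSH3, so their order per length rests on the gene models the authors used, and their ratio of 0.384 ± 0.041 and 0.407 ± 0.045 (SD, n = 3) overlapped between groups.

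Among the MutL genes, PMS2, whose protein nicks the new strand, stood at 9.17, 8.34 and 8.62 FPKM in controls and at 7.99, 8.09 and 8.18 FPKM under the label. The groups did not overlap, but the value of -0.09 (log2, 95% interval -0.21 to 0.02) did not pass (limma adjusted p = 0.243). RefSeq names 15 pseudogenes after PMS2, so its reads can have been split. PMS1 was at 2.74 ± 0.286 and 2.61 ± 0.035 FPKM and MLH3 at 2.97 ± 0.269 and 3.07 ± 0.377 FPKM (SD, n = 3), and the levels of PMS1, MLH3 and MSH3 were not separated by their spread in controls. EXO1, the nuclease that removes the nicked strand, had the highest level of the 6, at 11.9, 12.5 and 13.0 FPKM in controls and 11.4, 11.6 and 12.2 FPKM under the label (log2 -0.08, limma adjusted p = 0.319). Over the 6 genes the 95% intervals of the log2(FPKM + 1) changes lay between -0.27 and 0.21, a scale that understates changes at low FPKM. With voom on recovered fragments the log2 values were -0.18 for MSH3, -0.11 for MSH6 and -0.07 for PMS1. They were 0.05 for MLH3, -0.10 for PMS2 and -0.09 for EXO1 in that fit.

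In end joining, 1 of 5 tested members passed (20%, near the 16.8% of all tested genes). XRCC6 encodes Ku70, which with Ku80 forms the ring that first binds a broken end. It had the highest level of the 40, at 258, 260.2 and 255 FPKM in controls and 324, 303 and 276 FPKM in knockdown libraries 1 to 3, from 20794 to 27263 fragments. The groups did not overlap. The order within the knockdown label was that of the mitochondrial sums and of the sums of all mRNA rows given above. DDB1, APEX1 and PARP1 had the same order, and its cause was not tested. XRCC6 rose by 0.22 (log2, SE 0.07, limma adjusted p = 0.0456). The call was lost with median scaling (0.0552), with no filter (0.105), without control libraries 1, 2 and 3 (0.121, 0.145 and 0.156) and without knockdown libraries 1 and 2 (0.0618 and 0.124). RefSeq names 5 pseudogenes after XRCC6, and reads of near-identical copies can have been split.

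Ku80, from XRCC5, stood at 71.0, 73.7 and 75.7 FPKM in controls and at 81.7, 74.7 and 75.4 FPKM under the label, with overlap (log2 0.07, limma adjusted p = 0.387). The XRCC5 to XRCC6 ratio was 0.276, 0.283 and 0.297 in controls and 0.253, 0.247 and 0.273 under the label, without overlap (exact permutation p = 0.1, adjusted p = 0.35). PRKDC, the kinase that joins Ku at the end, was at 45.1 ± 0.586 and 45.7 ± 1.43 FPKM (SD, n = 3; 95% interval of the log2 change -0.09 to 0.12). The ligation genes were far less abundant: LIG4 was at 4.23 ± 0.156 and 4.03 ± 0.475 FPKM and its partner XRCC4 at 1.70 ± 0.249 and 1.58 ± 0.296 FPKM. NHEJ1 (XLF) had 1 to 4 fragments per library and was not tested, a depth at which a difference was not detectable.

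**Figure D3:**
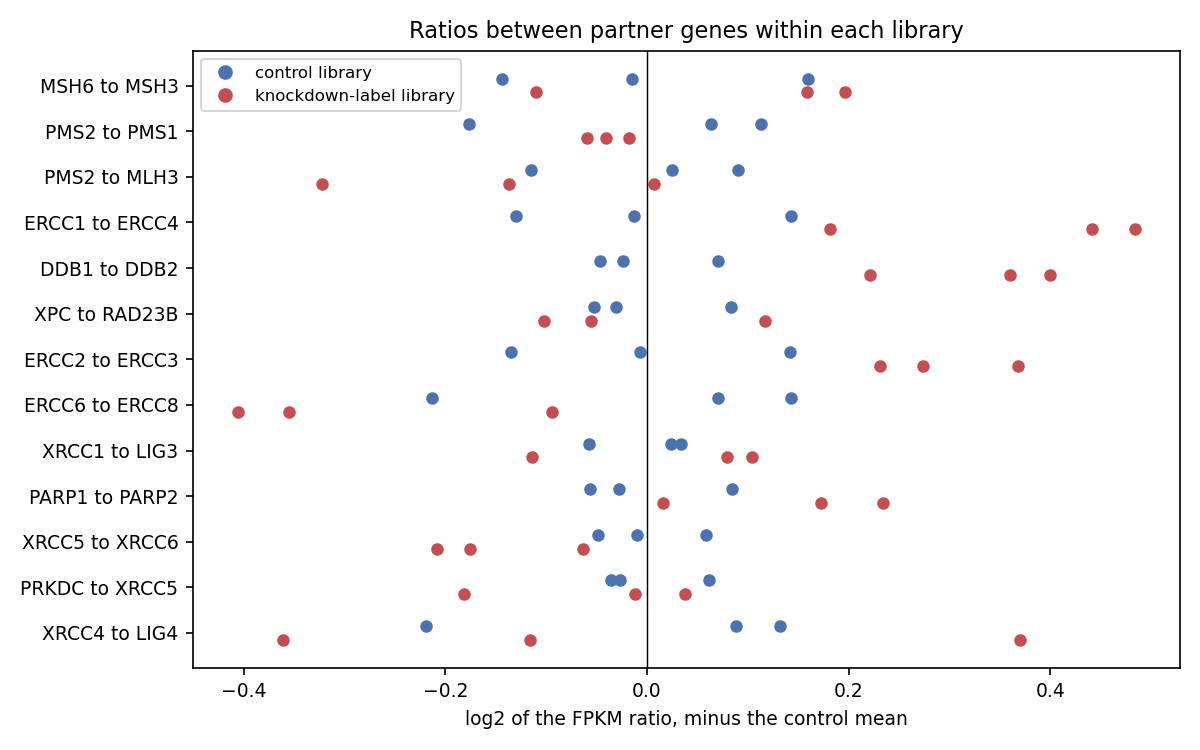
Ratio of the FPKM of 2 partner genes within each library, as log2 minus the control mean (horizontal axis), for 13 of the 14 pairs; NHEJ1 to XRCC4 is left out for its 1 to 4 NHEJ1 fragments. Blue points are control and red points knockdown-label libraries; red and blue do not overlap for ERCC1 to ERCC4, DDB1 to DDB2, ERCC2 to ERCC3 and XRCC5 to XRCC6.

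A ratio within a library does not change when that library is rescaled. Groups did not overlap in 4 of the 14 pairs, each of which holds a gene that was called or, for ERCC1, had an adjusted p = 0.0668, so the ratios are not independent of the single-gene values. No pair could pass 0.05, since 3 libraries against 3 cannot give an exact p below 0.1. Over all tested genes the groups did not overlap in 37.9%, and among the 38 tested members in 16 (42.1%), 10 higher and 6 lower, where the table had 22.6% higher and 15.3% lower.

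A further 50 genes of the same pathways, listed by role, gave 48 tested rows with 2 higher and 5 lower (14.6% called, beside 16.8%). Among base excision partners, APEX2, a second abasic site nuclease, rose from 20.2 ± 0.325 to 25.6 ± 1.95 FPKM, HMGB1, a chromatin protein that also acts in long-patch repair, fell from 71.98 ± 1.94 to 58.3 ± 0.946 FPKM, and the methyl-CpG glycosylase gene MBD4 fell from 6.59 ± 0.295 to 5.54 ± 0.237 FPKM (SD, n = 3). CCNH, the cyclin of the kinase module of TFIIH, rose from 2.53 ± 0.0807 to 3.20 ± 0.0265 FPKM. POLQ, the polymerase of the alternative end joining route, fell by 0.33 (log2, limma adjusted p = 0.00856), with 3.73, 3.67 and 4.05 FPKM in controls and 2.67, 2.79 and 3.05 FPKM under the label. RPA3 and RFC1, of strand binding and clamp loading, fell by 0.30 and 0.24 (log2). This count was 4 without control library 2, 4 without control library 3 and 11 without knockdown library 3. GTF2H4, a core TFIIH subunit, is listed at 0 in all libraries. The annotation and the assignment of reads are not given, so this value need not mean that the gene was silent.

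**Figure D4:**
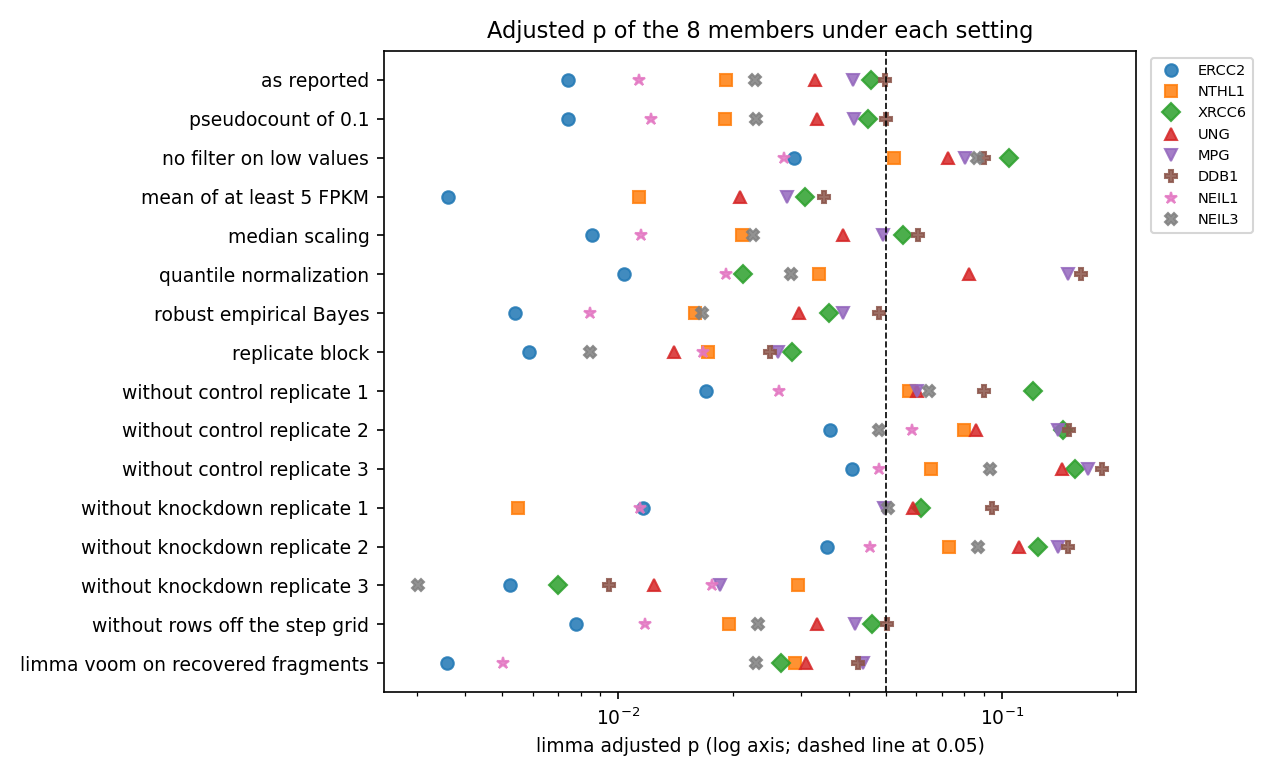
Limma adjusted p (horizontal log axis, dashed line at 0.05) of the 8 called members as reported and under each alternative (rows). ERCC2 stays left of the line in every row, NEIL1 crosses it once, at 0.0583 without control library 2, and DDB1 lies at or right of it in most rows.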

How the data were processed

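The authors deposited FPKM per gene symbol and library. The tools named per the submitters' processing notes are edgeR, Cuffdiff, StringTie and HISAT2, without roles or versions. The sources used here do not give genome build, annotation or strand use. Per the labels' protocols, mRNA was selected with poly-T beads, and lncRNA libraries were stranded and depleted of rRNA; which preparation gave the mRNA table is not stated.

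All values were tested on log2(FPKM + 1) with limma 3.58.1 in R 4.3.3 (lmFit, eBayes with a trend, two-sided, no rescaling, all 6 libraries) over rows whose mean reached 0.5 FPKM. Whole fragments and gene lengths were recovered from the steps of the values (tolerance 0.003 fragments, lengths up to 250000 bases), which placed 14776 of 14803 searched mRNA rows, all 40 members among them; 27 rows lay off this step grid. FPKM carries the counting error of these fragments. Ratios were compared by exact two-sided permutation tests. The scripts were tested on simulated data. The members, lists and tests were chosen with earlier results of these data known. Every called member is given by library; of others, those with a stated role. RefSeq symbols and windows (GRCh38.p14) matched 36 promoters; 4 symbols (SHLD1, SHLD2, CYREN and POLR1G) were matched through older names. Alternatives were another pseudocount, other filters, quantile normalization, median scaling, robust empirical Bayes, a replicate block and leaving out each library, and, chosen after seeing the data, voom on recovered fragments and a fit without rows off the step grid. The only lncRNA row named for a member, SMUG1-AS1, lay under the filter of that table, so no lncRNA fit was made.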

Additional observations from a re-analysis of the deposited data

How the results depend on the processing

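The count of genes called over the table was 960 with no filter and 643 to 2742 with 1 library left out. The quantile fit gave 50.3% of calls higher against 64.8% as reported. The median log2 change of all tested genes lay between 0.00 and 0.05 over the alternatives. The count of members called was 2 with no filter, 5 with quantile normalization (15.0% of all tested genes called) and 2 to 11 with 1 library left out. Nucleotide excision members called were 1 with a pseudocount of 0.1, no filter, median scaling, quantile normalization or without rows off the step grid (1 to 3 with 1 library left out). Base excision members called were 1 with no filter, 3 at a mean of at least 5 FPKM, where NEIL1 and NEIL3 were not tested, and 3 with quantile normalization (1 to 7 with 1 library left out). End joining members called were 0 with no filter or median scaling (0 to 1 with 1 library left out), and mismatch repair members 0 in every alternative. The other pathway genes called were 4 to 11 with 1 library left out.

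Whether equal numbers mark paired libraries was not settled, with only 3 libraries per group. Deviations of same-numbered libraries correlated at 0.08, 0.04 and 0.28, and those of differently numbered libraries at -0.21 to 0.15. Not each library was closest to its own number. The replicate block gave 2323 genes and 9 members called, with ERCC1 added (adjusted p = 0.0429), and the log2 values of the members were those reported.

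Signs turned for these values, none of them called. With quantile normalization the log2 change was -0.0187 for XPC, -0.0744 for RAD23B, -0.0275 for APEX1, -0.0426 for XRCC5 and -0.0551 for PRKDC, and with median scaling it was -0.000121 for XPA. With 1 library left out the ranges were -0.0369 to 0.0936 for MLH3, -0.0949 to 0.0109 for PMS1, -0.0656 to 0.0829 for XPA, -0.00872 to 0.0325 for XPC, -0.0141 to 0.0683 for RAD23B, -0.0278 to 0.0262 for PARP2, -0.0623 to 0.103 for TDP1, -0.147 to 0.0259 for XRCC4, -0.00168 to 0.0423 for PRKDC and -0.128 to 0.00879 for LIG4. For the log2 ratios these ranges were -0.128 to 0.0175 for PMS2 to PMS1, -0.0790 to 0.0308 for XPC to RAD23B, -0.0174 to 0.0918 for XRCC1 to LIG3, -0.0971 to 0.0126 for PRKDC to XRCC5 and -0.239 to 0.127 for XRCC4 to LIG4. NHEJ1 to XRCC4 turned from -0.755 to 0.0442 with a pseudocount of 1. The cause of these turns was not tested.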

Other observations

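Some further genes that overlap a member in RefSeq had these values. TOE1, which overlaps MUTYH, had a log2 value of 0.14 (limma adjusted p = 0.118), where MUTYH had -0.08. FBXO11, which overlaps MSH6, had -0.04 (adjusted p = 0.681), NCBP1, which overlaps XPA, -0.01 (0.866), PIP4P1, which overlaps APEX1, 0.05 (0.645), RFFL, which overlaps LIG3, 0.13 (0.221), and CAMK1, which overlaps OGG1, 0.08 (0.476). In the lncRNA table SMUG1-AS1 was listed at 0 in 4 libraries, at 0.0633 FPKM in control library 3 and at 0.0232 FPKM in knockdown library 2.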
